A study of Rattus norvegicus with 12 samples.

Results

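The DEAD-box and DEAH-box RNA helicases of the rat embryonic testis were read at 70 probe sets of 46 genes, out of 31099 probe sets on the array and 14217 genes named by its annotation. A probe set was a member where its annotation gave 1 gene symbol and that symbol was Ddx or Dhx followed by a number. The rule used no signal, though the members were chosen with earlier results of these data known. The members held 31 Ddx genes at 48 probe sets and 15 Dhx genes at 22. The rule left out 3 probe sets annotated with both Ddx19b and Ddx19a and 1 of the pseudogene Ddx3x-ps1. Of the 70 probe sets, 67 passed a filter on low signal and were tested, and all 46 genes had at least 1 of them. Those that did not pass were 1 of 3 probe sets of Ddx50 and 2 of 3 of Dhx58. The germ cell helicase Ddx4, Ddx3y, Ddx43 and Ddx53 were not analysed here.

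Testes of rat embryos at embryonic day 16 were compared between 2 lineages in the F1, F2 and F3 generations, with 2 arrays in each of the 6 groups. Pregnant founder females of the vinclozolin lineage were injected intraperitoneally with vinclozolin at 100 mg/kg/day on pregnancy days 8 to 14, and those of the control lineage with sesame oil and DMSO. Vinclozolin is a fungicide whose breakdown products block the androgen receptor. F1 embryos were carried during the injections, while F2 and F3 embryos came from later matings with no injection described. Each array read an RNA pool of about 10 testes, so p-values measure the spread between pools, and no label says whether the pools came from separate litters. In the vinclozolin lineage, the F2 and F3 protocols speak of breeders from control lines, and samples were grouped by their titles. In bulk RNA, fewer cells of a type and less RNA per cell cannot be told apart.

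Helicases of these families share a core that binds RNA and ATP, and take their names from a short amino acid motif in it. They open short RNA duplexes, strip proteins from RNA or clamp onto it, and so act at each step from transcription and splicing through export and ribosome assembly to translation and decay. Several are known for roles in the testis: Ddx4 and Ddx25 in germ cells, Ddx25 also in Leydig cells, and Ddx5 and Ddx17 as partners of nuclear receptors.

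Control probe sets that report on RNA quality differed between the lineages in F1 and F2, and 1 of 2 did so in F3. The ratio of the 5′ to the 3′ signal of beta-actin, which falls as RNA breaks or is copied short, was 0.459 ± 0.003, 0.447 ± 0.034 and 0.453 ± 0.016 in the controls of F1, F2 and F3 (SD, n = 2 per group). For the vinclozolin lineage the same groups read 0.171 ± 0.030, 0.233 ± 0.020 and 0.378 ± 0.025, and no vinclozolin array overlapped a control array. The same ratio of Gapdh was 1.00 ± 0.03, 0.994 ± 0.001 and 0.965 ± 0.008 in the controls and 0.684 ± 0.047, 0.760 ± 0.056 and 0.996 ± 0.038 in the vinclozolin lineage, so that it was lower in F1 and F2 and overlapped in F3. With the beta-actin ratio as a covariate, no member was called in F1, in F2 or in the mean over generations, and 1 was called in F3, against 0%, 0%, 0% and 1.14% of all tested probe sets. Some differences stayed large in that fit without being called. They included Ddx6 at 1389868_at (−1.30 in F1 and −1.58 in F2) and Dhx36 at 1377906_at (−1.06 and −1.51), at adjusted p of 0.176 to 0.654. Others came near 0 or changed sign, also without a call. Among them were Ddx3x at 1386535_at (0.034 and −0.15), Ddx17 at 1397405_at (0.89 and 0.38) and Ddx21 at 1396187_at (0.094 and 0.033), at adjusted p of 0.664 to 0.993. All these estimates rest on the small spread of the ratio within groups (SD 0.003 to 0.034), so they cannot sort the members. For every call below, lineage and the beta-actin ratio cannot be told apart in these arrays. Marker genes of fetal Leydig cells summed to 11688.8 to 12420.5 on control and 12592.4 to 15064.3 on vinclozolin arrays. Red blood cell markers summed to 987.5 to 1352 and 1451.1 to 1958.2, with 1 of 4 probe sets called in F2 (14.3% of all tested probe sets were). Prostate markers summed to 1.8 to 17.5 on control arrays. On vinclozolin arrays they gave 25 to 36.1 in F1, 36.9 to 49.1 in F2 and 457.7 to 541.7 in F3. Interstitial markers summed to 5439.1 to 5636.9 on control and 4850.8 to 5492.2 on vinclozolin arrays. Of their 7 probe sets, 1 was called higher and 6 lower in the mean over generations (14.1% and 19.2% of all tested probe sets). Sums of Sertoli, endothelial, macrophage, mesonephros and skeletal muscle markers overlapped between lineages with generations pooled, but not in every generation. Sertoli sums were higher on vinclozolin arrays in F2 (4682.2 to 4790.9 against 4146.8 to 4428.2 on controls). They were lower in F3 (3726.7 to 4019.2 against 4127 to 4452.4). Mesonephros sums were lower without overlap in F1 (37.4 to 44.2 against 77.4 to 82.8) and F3. So were macrophage sums in F1, endothelial sums in F3 and skeletal muscle sums in F2. The remaining sums overlapped within their generation. The part of any cell type in the member results was not tested. Only 3 of 10 germ cell markers were annotated, and their sum was 293.6 to 333.4 on control and 195.7 to 302.1 on vinclozolin arrays.

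Most helicase probe sets were not called, and a small number of probe sets fell far. A probe set was called where limma's moderated test gave a Benjamini-Hochberg adjusted p under 0.05 over all 21729 tested probe sets. In F1, 19 of 67 members were called, 6 higher and 13 lower in the vinclozolin lineage (28.4% of members, against 23.1% of all tested probe sets). In F2, 14 were called, 2 higher and 12 lower (20.9% against 14.3%). In F3, 3 were called, all lower (4.48% against 3.11%), and in the mean over generations 23, with 6 higher and 17 lower (34.3% against 33.3%, with 14.1% higher and 19.2% lower among all). The shares lower were 19.4% in F1, 17.9% in F2 and 4.48% in F3, against 13.7%, 9.65% and 2.06% of all tested probe sets. The shares higher were 8.96%, 2.99% and 0%, against 9.41%, 4.7% and 1.05%.

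The split of calls into higher and lower depended on the scaling. It turned in F1, F2 and the mean, in the members as over the whole array, when each array was centred on its median. After quantile normalization it was 4 higher and 12 lower in F1, 2 and 11 in F2 and 6 and 17 in the mean. Of all tested probe sets, 10.9% and 12.6%, 5.48% and 8.5%, and 16.9% and 16.6% were then higher and lower. After cyclic loess the members split into 3 and 12, 2 and 13, and 4 and 19. The shares of all were 9.36% and 13.3%, 4.51% and 9.11%, and 14.7% and 17.8%. With each array centred on its median, which raised the median lineage difference of all tested probe sets by 0.12 in F1, 0.12 in F2 and 0.05 in F3 (log2), the members split into 13 higher and 9 lower in F1, 10 and 7 in F2, and 0 and 2 in F3. The shares of all tested probe sets turned alike, with 16.9% higher and 10.1% lower in F1, 11.9% and 6.88% in F2, and 1.47% and 1.49% in F3. In the mean over generations, 20 members were then higher and 10 lower (25.4% and 12.9% of all). All 9 of the lower F1 members and all 7 of the lower F2 members under that scaling were also called lower on the values as deposited. The median log2 difference of the members was −0.01 in F1, 0.01 in F2 and −0.05 in F3, against −0.01 for all tested probe sets in each generation. A few members fell far: 4 in F1 and 5 in F2 fell by more than 1 on the log2 scale, or 2-fold, as did 3.19% and 1.91% of all tested probe sets. None did in F3, where 0.262% of all did.

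**Figure D1:**
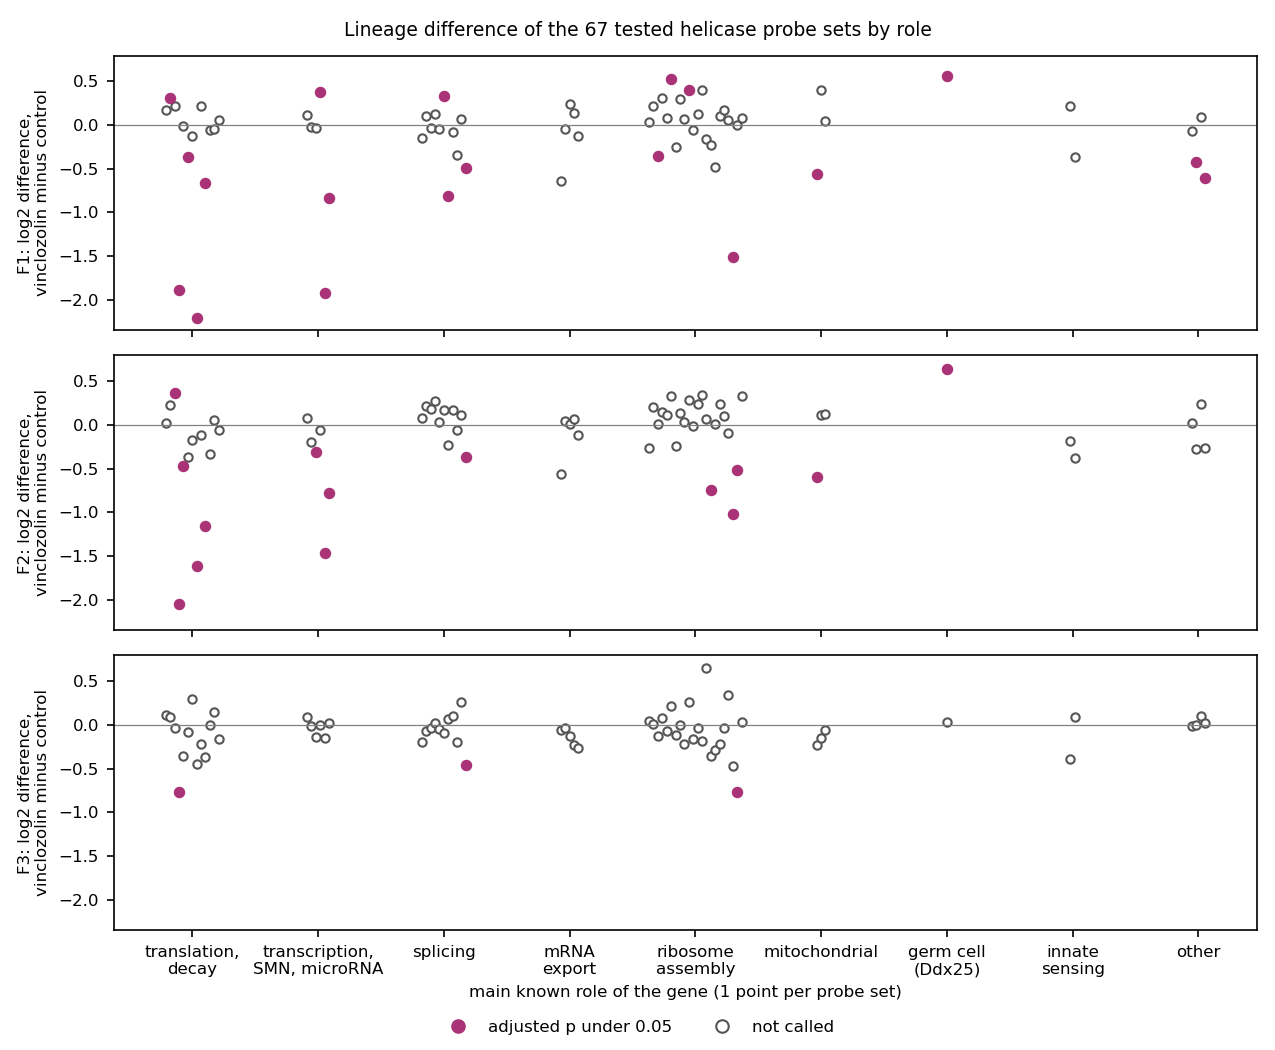
Lineage difference (log2, vinclozolin minus control) of the 67 tested helicase probe sets in F1, F2 and F3, 1 point per probe set, grouped on the horizontal axis by the main known role of the gene. Filled points had an adjusted p under 0.05. The points lay between −2.20 and 0.55 in F1, between −2.05 and 0.63 in F2 and between −0.77 and 0.65 in F3, and most sat near 0.

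Promoters are shown for the 4 helicases with a probe set that fell by more than 1 in both F1 and F2, and for Ddx25, which rose in both. Each line gives the 150 bases before the RefSeq transcription start (build GRCr8), 5′ to 3′ on the gene's strand.
Dhx36: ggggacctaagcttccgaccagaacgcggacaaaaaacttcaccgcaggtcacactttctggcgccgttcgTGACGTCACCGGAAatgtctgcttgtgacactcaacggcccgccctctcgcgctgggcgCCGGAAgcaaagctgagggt
Ddx3x: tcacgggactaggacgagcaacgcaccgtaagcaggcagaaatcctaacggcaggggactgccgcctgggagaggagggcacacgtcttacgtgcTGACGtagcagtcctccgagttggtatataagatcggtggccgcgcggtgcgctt
Ddx17, upstream start: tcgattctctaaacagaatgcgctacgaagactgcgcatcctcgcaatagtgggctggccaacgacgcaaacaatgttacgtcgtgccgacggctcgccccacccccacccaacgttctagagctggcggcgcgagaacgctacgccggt
Ddx17, downstream start: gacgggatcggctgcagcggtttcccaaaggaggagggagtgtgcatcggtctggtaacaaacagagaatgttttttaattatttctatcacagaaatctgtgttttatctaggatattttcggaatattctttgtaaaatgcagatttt
Ddx21: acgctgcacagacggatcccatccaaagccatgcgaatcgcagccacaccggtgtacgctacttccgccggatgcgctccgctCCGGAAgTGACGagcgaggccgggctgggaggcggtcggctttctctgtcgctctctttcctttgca
Ddx25: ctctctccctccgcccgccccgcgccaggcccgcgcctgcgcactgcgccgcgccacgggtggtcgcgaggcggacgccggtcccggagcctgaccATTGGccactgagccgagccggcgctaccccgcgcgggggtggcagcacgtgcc
These windows are chr2:149044192-149044341, chrX:12165984-12166133, chr7:112989748-112989897, chr7:112975074-112975223, chr20:31097239-31097388 and chr8:42168081-42168230, all on the minus strand. Capitals mark matches on either strand to 5 motifs searched: CCGGAA (the ETS core), TGACG (a cAMP element half-site), CCAAT (the CCAAT box), TATAAA (the TATA box) and AGAACA (an androgen receptor half-site). Neither window of Ddx17 held a match to any of the 5. In Dhx36 the TGACG matches on opposite strands overlap, and CCGGAA matched once more nearer the start. Over 250 bases, CCGGAA was found in 21 of 44 promoters of 42 member genes (47.7%) and in 12.6% of 33360 promoters of all genes. TGACG was found in 38.6% of member and 18.2% of all promoters, CCAAT in 47.7% and 34.0%, TATAAA in 4.55% and 12.9%, and AGAACA in 11.4% and 17.5%. A match is a run of letters and does not show that a factor binds there.

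The helicases of translation, mRNA decay and G-quadruplex unwinding held the deepest fall of each generation. It was at Ddx3x in F1 and at Dhx36 in F2 and F3. Of 13 tested probe sets of this role, 1 was higher and 4 lower in F1, 1 and 4 in F2, and 0 and 1 in F3, where 9.41% and 13.7%, 4.7% and 9.65%, and 1.05% and 2.06% of all tested probe sets were. With arrays centred the counts were 3 and 3, 2 and 3, and 0 and 1, beside 16.9% and 10.1%, 11.9% and 6.88%, and 1.47% and 1.49% of all. The medians were −0.05, −0.18 and −0.08. Dhx36 unwinds G-quadruplexes, stacked guanine structures in RNA and DNA, and has 5 probe sets. Signals of 1377906_at were 294.4 and 300.0 on control against 68.5 and 68.6 on vinclozolin arrays in F1, 278.9 and 346.8 against 80.2 and 49.1 in F2, and 278.4 and 268.8 against 142.3 and 165.7 in F3. Every vinclozolin array lay below every control array, and the F3 vinclozolin arrays lay between the controls and the other vinclozolin arrays. The log2 difference was −1.89 ± 0.16 in F1 (± SE, n = 2 arrays per group, as throughout; adjusted p = 3.90e-06), or 3.7-fold lower. It was −2.05 ± 0.16 in F2 (adjusted p = 4.37e-06) and −0.77 ± 0.16 in F3 (adjusted p = 0.0186). The F1 and F2 calls were kept when any 1 of the 12 arrays was left out, while the F3 call was lost without any 1 of the 4 F3 arrays (adjusted p = 0.0753 to 0.174).

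The other 4 probe sets of Dhx36 moved less. Signals of 1379101_at were 912.9 and 834.6 on control against 719.8 and 1039.9 on vinclozolin arrays in F1, 914.5 and 985.8 against 768.9 and 603.1 in F2, and 922.7 and 1008.7 against 718.9 and 786.8 in F3. It did not pass in F1 (−0.01 ± 0.14; adjusted p = 0.964) or in F3 (−0.35 ± 0.14; adjusted p = 0.202), and fell by 0.47 ± 0.14 in F2 (adjusted p = 0.0403). Signals of 1385871_at were 668.5 and 616.8 on control against 482.2 and 507.6 on vinclozolin arrays in F1, 679.3 and 685.3 against 622.8 and 443.6 in F2, and 765.0 and 716.2 against 698.7 and 697.1 in F3. It fell by 0.37 ± 0.12 in F1 (adjusted p = 0.0401) and did not pass in F2 (−0.37 ± 0.12; adjusted p = 0.0557) or F3. These calls were weak: that of 1379101_at was lost in 9 and that of 1385871_at in 10 of 12 runs that each left out 1 array. Signals of 1393432_a_at were 353.6 and 335.7 on control against 299.5 and 369.8 on vinclozolin arrays in F1, 346.8 and 314.6 against 353.9 and 331.2 in F2, and 340.1 and 338.5 against 363.1 and 392.7 in F3, and its lineages overlapped in F1 and F2, with no call in any generation. Signals of 1385872_at were 313.8 and 311.5 on control against 259.7 and 310.4 on vinclozolin arrays in F1, 335.2 and 308.6 against 304.0 and 263.1 in F2, and 295.5 and 298.5 against 380.0 and 354.3 in F3, again with no call in any generation (−0.13, −0.18 and 0.29).

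Within each array, 1377906_at could be set against the other probe sets of Dhx36, a difference that centring of the log2 values does not move. The log2 value of 1379101_at minus that of 1377906_at was higher in the vinclozolin lineage by 1.88 ± 0.19 in F1 and 1.58 ± 0.19 in F2 (adjusted p = 7.12e-05 and 0.000433), with 0.42 ± 0.19 in F3 (adjusted p = 0.273). For 1393432_a_at the values were 1.84 ± 0.20 in F1, 2.10 ± 0.20 in F2 and 0.92 ± 0.20 in F3 (adjusted p = 8.20e-05, 0.000142 and 0.0358). For 1385871_at they were 1.52 ± 0.16, 1.68 ± 0.16 and 0.69 ± 0.16 (adjusted p = 7.91e-05, 0.000142 and 0.0495). For 1385872_at they were 1.76 ± 0.19, 1.87 ± 0.19 and 1.06 ± 0.19 (adjusted p = 8.56e-05, 0.00017 and 0.0197). The lineage difference of Dhx36 thus depended on which probe set was read. All 4 of these pairs differed in F1 and F2, and 3 of them in F3. The F3 pair calls were all lost when any F3 array was left out.

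Ddx3x, an X-linked helicase that aids translation of mRNAs with structured leaders, showed the same split. Signals of 1386535_at were 288.7 and 325.6 on control against 63.1 and 46.4 on vinclozolin arrays in F1, 285.6 and 285.7 against 114.0 and 59.5 in F2, and 374.5 and 256.6 against 239.4 and 206.9 in F3. All 6 vinclozolin arrays lay below all 6 control arrays, and those of F3 lay close to the controls. The probe set fell by 2.20 ± 0.21 in F1 (adjusted p = 8.55e-06), the largest fall of any member, and fell by 1.61 ± 0.21 in F2 (adjusted p = 0.000242), and did not pass in F3 (−0.45 ± 0.21; adjusted p = 0.277). Signals of 1372242_at, the other probe set, were 2112.0 and 2117.6 on control against 2229.4 and 2514.5 on vinclozolin arrays in F1, 2212.1 and 2346.9 against 2221.6 and 2410.6 in F2, and 2141.1 and 2119.2 against 2354.8 and 2247.9 in F3. It was not called in any generation (0.16 ± 0.08, 0.02 ± 0.08 and 0.11 ± 0.08). The difference between both probe sets changed by 2.36 ± 0.28 in F1, 1.63 ± 0.28 in F2 and 0.56 ± 0.28 in F3 (adjusted p = 0.000136, 0.002 and 0.313). The probe set annotated to the pseudogene Ddx3x-ps1, which is no member, gave −2.05, −1.94 and −0.48 (adjusted p = 4.40e-06, 1.63e-05 and 0.158). Whether transcripts of Ddx3x bind to it was not tested.

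Ddx6 represses translation and promotes decapping of mRNAs, and was read at 3 probe sets. Signals of 1389868_at were 615.1 and 677.6 on control against 351.1 and 458.3 on vinclozolin arrays in F1, 695.7 and 693.2 against 342.3 and 266.3 in F2, and 568.9 and 600.2 against 437.3 and 460.1 in F3. All 6 vinclozolin arrays lay below the 6 control arrays, with the lowest in F2. It fell by 0.67 ± 0.13 in F1 (adjusted p = 0.00166) and fell by 1.16 ± 0.13 in F2 (adjusted p = 7.07e-05) and did not pass in F3 (−0.37 ± 0.13; adjusted p = 0.129). This probe set had the highest mean signal of the 3 over the arrays of both lineages. In Dhx36, Ddx3x, Ddx17 and Ddx21 the deepest fall was instead at the dimmest by that measure. Signals of 1398945_at were 250.6 and 236.6 on control against 245.1 and 263.7 on vinclozolin arrays in F1, 231.9 and 233.4 against 235.8 and 209.4 in F2, and 262.7 and 260.8 against 220.5 and 244.1 in F3. Signals of 1392854_at were 145.4 and 129.4 on control against 115.3 and 147.6 on vinclozolin arrays in F1, 161.8 and 168.1 against 136.6 and 118.6 in F2, and 131.6 and 145.3 against 116.1 and 164.5 in F3. Neither was called in any generation. The first minus 1398945_at changed by −0.72 ± 0.16 in F1 and −1.10 ± 0.16 in F2 (adjusted p = 0.0038 and 0.000793), and minus 1392854_at by −0.60 ± 0.17 and −0.82 ± 0.17 (adjusted p = 0.0172 and 0.00504).

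**Figure D2:**
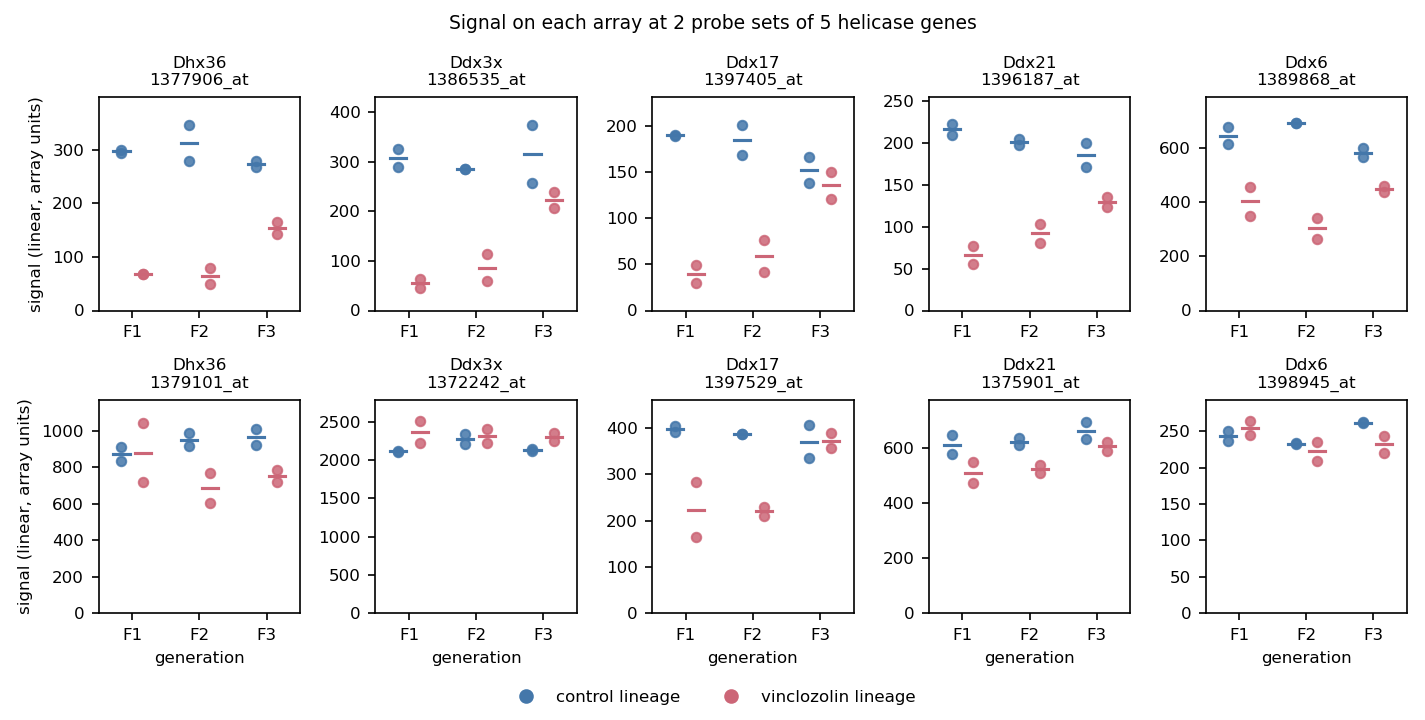
Linear signal on each of the 12 arrays (vertical axis, array units, each panel with its own scale from 0) by generation, at 2 probe sets of Dhx36, Ddx3x, Ddx17, Ddx21 and Ddx6. Points are arrays and bars the mean of 2. In the upper row the F1 and F2 vinclozolin arrays lie below the controls at each probe set. In the lower row those of Ddx17 (1397529_at) and Ddx21 (1375901_at) also lie below the controls of their generation. Those of Ddx3x (1372242_at) lie at 2221.6 to 2514.5 against 2112.0 to 2346.9 on the controls.

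Among the other helicases of this role, Ddx1, which takes part in RNA transport and tRNA ligation, was higher on every vinclozolin array. Its signals were 1578.1 and 1524.3 on control against 1856.1 and 1994.4 on vinclozolin arrays in F1, 1534.5 and 1524.4 against 1790.4 and 1778.0 in F2, and 1562.9 and 1594.8 against 1677.7 and 1666.2 in F3. It rose by 0.31 ± 0.07 in F1 (adjusted p = 0.00678), and gave 0.22 ± 0.07 in F2 and 0.08 ± 0.07 in F3 (adjusted p = 0.0567 and 0.606). The F1 call was lost without the second F1 control array (adjusted p = 0.0799), under quantile normalization (0.0740) and under cyclic loess (0.0726). Dhx29, which helps the small ribosomal subunit scan structured leaders, gave 547.5 and 507.6 on control against 620.9 and 609.4 on vinclozolin arrays in F1, 508.4 and 498.9 against 639.1 and 667.1 in F2, and 553.6 and 532.1 against 511.5 and 543.9 in F3. It rose by 0.36 ± 0.09 in F2 (adjusted p = 0.0105), a call lost without 3 of the 4 F2 arrays (adjusted p = 0.0676 to 0.0832). Dhx34, a factor of nonsense-mediated decay, gave 0.22, −0.12 and −0.22 and was not called.

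Of the helicases of transcription and microRNA processing, Ddx17 fell at both of its probe sets and Ddx5, its close relative, at 1 of 2. Both proteins act as coactivators of nuclear receptors and in the Drosha complex. The role had 6 tested probe sets, 1 higher and 2 lower in F1, 0 and 3 in F2, and none called in F3 (23.1%, 14.3% and 3.11% of all tested probe sets were called). With arrays centred, 1 and 2 were called in F1, 0 and 2 in F2, and none in F3. Signals of Ddx17 at 1397405_at were 190.9 and 189.7 on control against 49.8 and 29.4 on vinclozolin arrays in F1, 168.9 and 201.9 against 76.6 and 41.6 in F2, and 167.3 and 138.6 against 150.9 and 121.4 in F3. F1 and F2 vinclozolin arrays lay far below the controls, while the F3 lineages overlapped. It fell in F1 (−1.92 ± 0.21) and F2 (−1.46 ± 0.21) (adjusted p = 2.36e-05 and 0.000442) and gave −0.15 ± 0.21 in F3 (adjusted p = 0.761). Signals of 1397529_at were 392.1 and 405.0 on control against 283.4 and 164.1 on vinclozolin arrays in F1, 387.6 and 387.7 against 229.4 and 210.3 in F2, and 407.0 and 334.6 against 390.3 and 356.3 in F3. The same order held, with smaller falls in F1 (−0.84 ± 0.17) and F2 (−0.78 ± 0.17) (adjusted p = 0.00269 and 0.0075) and 0.01 ± 0.17 in F3. With 1 array left out at a time, its F1 difference ran from −1.20 to −0.47. Its F2 call was lost without either F2 control array or the second F2 vinclozolin array (adjusted p = 0.0566 to 0.0798). The probe sets fell unequally: their difference changed by 1.08 ± 0.19 in F1 and 0.68 ± 0.19 in F2 (adjusted p = 0.00127 and 0.0204).

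Ddx5 at 1372484_at gave 1043.0 and 1031.8 on control against 955.8 and 1064.8 on vinclozolin arrays in F1, 1084.9 and 1038.1 against 891.9 and 817.9 in F2, and 1030.7 and 1046.8 against 938.1 and 941.6 in F3. It fell by 0.31 ± 0.08 in F2 alone among the generations tested (adjusted p = 0.0223), a call lost in 3 of 12 runs without 1 array and with arrays centred (adjusted p = 0.146). Its brighter probe set 1371837_at gave 2800.6 and 2833.1 on control against 2532.6 and 3000.3 on vinclozolin arrays in F1, 3053.5 and 2734.9 against 2610.1 and 2413.6 in F2, and 2851.6 and 2888.5 against 2913.9 and 2786.8 in F3. The lineages overlapped in F1 and F3, and both vinclozolin arrays lay below both controls in F2 (−0.20 ± 0.09, adjusted p = 0.145). It was not called, and the F2 difference between both probe sets changed by 0.11 ± 0.14 (adjusted p = 0.600). Dhx9, which resolves RNA-DNA hybrids and links RNA polymerase II to coactivators, gave 513.3 and 529.3 on control against 734.5 and 630.7 on vinclozolin arrays in F1, 589.2 and 547.6 against 541.8 and 546.7 in F2, and 641.0 and 636.3 against 613.5 and 659.7 in F3. Both F1 vinclozolin arrays lay above both F1 controls, though F3 controls gave 641.0 and 636.3, and Dhx9 rose by 0.37 ± 0.09 in F1 (adjusted p = 0.00863), with −0.06 in F2 and −0.01 in F3. The F1 call was lost without either F1 control array (adjusted p = 0.0753 and 0.0508). Ddx20, a part of the SMN complex that builds spliceosomal particles, gave 286.7 and 244.8 on control against 268.9 and 306.4 on vinclozolin arrays in F1, 288.4 and 271.2 against 295.7 and 297.5 in F2, and 294.4 and 285.1 against 289.5 and 326.6 in F3 and was not called (0.11, 0.08 and 0.08).

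The nucleolar helicases of ribosome assembly made up the largest role, and most of their probe sets were not called. Of 22 tested, 2 were higher and 2 lower in F1, 0 and 3 in F2, and 0 and 1 in F3, while 23.1%, 14.3% and 3.11% of all tested probe sets were called. With arrays centred the split was 4 and 1, 3 and 2, and 0 and 1. Their medians were 0.07, 0.08 and −0.06. Ddx21, which couples transcription by RNA polymerases to processing of ribosomal RNA, gave 209.5 and 222.9 on control against 77.3 and 55.5 on vinclozolin arrays in F1, 197.1 and 204.5 against 103.6 and 80.4 in F2, and 199.6 and 171.0 against 135.3 and 123.1 in F3 at 1396187_at. All 6 vinclozolin arrays lay below all 6 controls, in the order F1, F2, F3 from lowest to highest group mean. It fell in F1 (−1.51 ± 0.15) and F2 (−1.01 ± 0.15) (adjusted p = 8.58e-06 and 0.000451) and gave −0.47 ± 0.15 in F3 (adjusted p = 0.0945). The brighter 1375901_at gave 577.7 and 646.0 on control against 549.3 and 472.0 on vinclozolin arrays in F1, 609.4 and 637.4 against 539.1 and 508.6 in F2, and 692.9 and 631.5 against 590.3 and 622.8 in F3. It lay below the controls within each generation without passing in any of them (−0.26, −0.24 and −0.12), and passed as a mean of −0.21 ± 0.06 (adjusted p = 0.0111). The difference between both changed by 1.25 ± 0.16 in F1 and 0.77 ± 0.16 in F2 (adjusted p = 0.000171 and 0.00456).

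Ddx18, a factor of large subunit assembly, was the one member called in F2 and F3 and not in F1. Its probe set 1397508_at gave 234.4 and 258.2 on control against 194.5 and 306.5 on vinclozolin arrays in F1, 261.8 and 274.3 against 202.5 and 164.4 in F2, and 296.1 and 280.4 against 157.1 and 169.8 in F3. It fell in F2 (−0.52 ± 0.16) and F3 (−0.76 ± 0.16) (adjusted p = 0.0413 and 0.0201), against −0.01 ± 0.16 in F1, and the test of dependence on generation gave adjusted p = 0.163. The F3 call was lost without any 1 of the 4 F3 arrays (adjusted p = 0.107 to 0.187), and the F2 call in 9 of 12 such runs. The other probe set of Ddx18, 1377945_at, read 442.9 to 474.5 on control and 395.6 to 481.2 on vinclozolin arrays and was not called. Ddx27, also of the large subunit, gave 138.4 and 172.4 on control against 125.8 and 132.6 on vinclozolin arrays in F1, 197.8 and 149.6 against 91.9 and 100.7 in F2, and 146.9 and 141.7 against 105.0 and 112.9 in F3 at 1385471_at. It fell by 0.75 ± 0.14 in F2 (adjusted p = 0.00265), a call lost without the first F2 control array (0.0570). Ddx27 at 1397551_at gave 212.6 and 231.3 on control against 253.1 and 216.3 on vinclozolin arrays in F1, 224.2 and 250.9 against 275.9 and 326.6 in F2, and 266.0 and 269.4 against 271.9 and 274.0 in F3 and pointed the other way in F2 (0.32 ± 0.11; adjusted p = 0.0732), so that both differed by 1.07 ± 0.19 (adjusted p = 0.00205).

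Ddx47 and Ddx24 were the nucleolar helicases called higher. Ddx47, needed for early cuts in ribosomal RNA, gave 359.8 and 329.6 on control against 442.3 and 564.5 on vinclozolin arrays in F1, 330.2 and 353.1 against 447.6 and 416.7 in F2, and 338.7 and 307.9 against 381.1 and 373.9 in F3. All 6 vinclozolin arrays lay above all 6 controls. It rose by 0.52 ± 0.11 in F1 (adjusted p = 0.00412; 0.0575 without the second F1 control array) and gave 0.33 ± 0.11 and 0.22 ± 0.11 in F2 and F3. Ddx24 at 1376739_at gave 557.3 and 606.8 on control against 735.8 and 804.1 on vinclozolin arrays in F1, 534.4 and 630.0 against 648.3 and 776.5 in F2, and 530.0 and 591.3 against 598.4 and 755.6 in F3. It rose by 0.39 ± 0.12 in F1 (adjusted p = 0.0326), a call lost without 3 of the 4 F1 arrays (0.0820 to 0.195) and under quantile normalization (0.0582). Its other probe set 1376116_at gave 0.29 ± 0.12 in F1 (adjusted p = 0.0867). Ddx54 gave 215.7 and 201.9 on control against 198.6 and 104.6 on vinclozolin arrays in F1, 215.5 and 205.5 against 191.9 and 233.6 in F2, and 209.2 and 198.7 against 159.2 and 168.9 in F3 at 1388864_at and 75.0 and 93.7 on control against 104.3 and 74.7 on vinclozolin arrays in F1, 87.7 and 96.2 against 89.3 and 98.5 in F2, and 86.8 and 98.0 against 74.9 and 79.3 in F3 at 1376143_at. Neither was called, while their F1 difference changed by −0.55 ± 0.19 (adjusted p = 0.0376). Ddx51 fell by 0.36 ± 0.11 in F1 (adjusted p = 0.0317), a call lost with arrays centred.

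Among the helicases that drive the spliceosome, Dhx16 was called lower in every generation. The role had 11 tested probe sets, with 1 higher and 2 lower in F1, 0 and 1 in F2 and 0 and 1 in F3 (of all tested probe sets, 23.1%, 14.3% and 3.11% were called). With arrays centred these became 1 and 2, 3 and 0, and 0 and 0. Dhx16, which remodels the spliceosome before the first catalytic step, gave 226.0 and 199.1 on control against 154.5 and 137.4 on vinclozolin arrays in F1, 208.3 and 209.8 against 150.5 and 166.1 in F2, and 203.0 and 213.7 against 158.8 and 136.6 in F3. All 6 vinclozolin arrays lay below all 6 controls. It fell in F1 (−0.50 ± 0.12), F2 (−0.37 ± 0.12) and F3 (−0.46 ± 0.12) (adjusted p = 0.00628, 0.0451 and 0.0453), with a mean of −0.44 ± 0.07 (adjusted p = 0.00016). The call in F1 was lost in 1, that in F2 in 8 and that in F3 in 8 of 12 runs without 1 array, and those of F2 and F3 with arrays centred (adjusted p = 0.144 and 0.0777). Dhx16 and Dhx36 at 1377906_at were the members called lower in all 3 generations, 2 of 67, as were 0.907% of all tested probe sets.

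Dhx35, found in spliceosomes, gave 143.4 and 127.4 on control against 75.1 and 65.5 on vinclozolin arrays in F1, 130.1 and 126.5 against 89.3 and 127.0 in F2, and 120.6 and 114.1 against 150.3 and 101.3 in F3. Its F1 vinclozolin arrays lay well below every other array, and it fell by 0.81 ± 0.17 in F1 (adjusted p = 0.00324), with −0.23 ± 0.17 in F2 and 0.07 ± 0.17 in F3. Ddx42 at 1379896_at gave 290.5 and 298.9 on control against 347.5 and 404.6 on vinclozolin arrays in F1, 301.6 and 298.9 against 332.9 and 342.6 in F2, and 294.1 and 323.2 against 254.6 and 322.0 in F3 and rose by 0.33 ± 0.12 in F1, at the edge of the threshold (adjusted p = 0.0497; lost in 9 of 12 runs without 1 array). Dhx15, which takes spliceosomes apart, gave 1303.0 and 1309.3 on control against 1305.9 and 1420.7 on vinclozolin arrays in F1, 1273.0 and 1303.9 against 1433.2 and 1351.5 in F2, and 1312.0 and 1253.7 against 1562.4 and 1523.0 in F3. It passed as a mean of 0.14 ± 0.04 over generations (adjusted p = 0.0215) and in no single one. Ddx23, Ddx41, Ddx46, Dhx8 and Dhx38 were not called in any generation.

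The remaining roles were small. Beside them, 23.1%, 14.3% and 3.11% of all tested probe sets were called in F1, F2 and F3 (27%, 18.8% and 2.95% with arrays centred). None of 5 probe sets of mRNA export was called in any generation (2 higher in F1 with arrays centred), and the dim 1380012_at of Ddx19b passed as a mean of −0.42 ± 0.15 (adjusted p = 0.0440). Ddx39b, the export helicase UAP56, gave 2243.1 and 2478.7 on control against 2592.0 and 2575.5 on vinclozolin arrays in F1, 2353.5 and 2463.6 against 2437.4 and 2598.0 in F2, and 2319.8 and 2404.1 against 2093.5 and 1933.0 in F3, with 0.13 ± 0.08, 0.06 ± 0.08 and −0.23 ± 0.08. Of 3 mitochondrial probe sets, 1 was called lower in F1 and F2 (with arrays centred, 1 higher in F1 and none in F2), that of Ddx28 at 1375576_at. This dim probe set, whose fold change the added constant shrinks, gave 27.7 and 32.3 on control against 15.9 and 14.2 on vinclozolin arrays in F1, 28.1 and 29.0 against 15.4 and 11.7 in F2, and 25.7 and 28.0 against 23.3 and 18.0 in F3. It fell in F1 (−0.57 ± 0.18) and F2 (−0.60 ± 0.18) (adjusted p = 0.0333 and 0.0375), calls lost in 5 and 7 of 12 runs without 1 array and with arrays centred. The brighter probe set 1384377_at of Ddx28 gave 51.5 and 75.1 on control against 82.0 and 92.5 on vinclozolin arrays in F1, 71.0 and 54.4 against 70.8 and 66.1 in F2, and 55.6 and 73.8 against 49.6 and 63.2 in F3 and was not called, and the difference between both changed by 0.96 ± 0.20 in F1 and 0.70 ± 0.20 in F2 (adjusted p = 0.00327 and 0.0225). Neither tested probe set of the innate sensors Ddx60 and Dhx58 was called. Dhx32 and Dhx40 fell in F1 (−0.61 ± 0.19 and −0.42 ± 0.10) (adjusted p = 0.0343 and 0.00686), and Dhx57 and Ddx59 were not called. Of these 4 genes, 1 probe set rather than 2 was called lower in F1 under quantile normalization, with arrays centred and under cyclic loess.

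Ddx25, the gonadotropin-regulated testicular RNA helicase of Leydig and germ cells, rose in F1 and F2. Its signals were 90.2 and 98.0 on control against 114.6 and 183.1 on vinclozolin arrays in F1, 95.2 and 72.4 against 134.1 and 141.9 in F2, and 89.6 and 96.1 against 98.4 and 91.6 in F3. The vinclozolin arrays lay above the controls of F1 and of F2, and the lineages overlapped in F3. It rose by 0.55 ± 0.17 in F1 and 0.63 ± 0.17 in F2 (adjusted p = 0.0309 and 0.0229), or 1.47-fold and 1.55-fold, and gave 0.03 ± 0.17 in F3 (adjusted p = 0.952). The rise in F1 leaned on 1 array: without the second F1 vinclozolin array the log2 difference was 0.25 (adjusted p = 0.314). The F1 call was also lost without either F1 control array (0.160 and 0.0937), and the F2 call without 3 of the 4 F2 arrays (0.0599 to 0.204). Beside it, 2 of 7 fetal Leydig cell probe sets were called higher and 1 lower in F1, 3 and 1 in F2, and 3 and 0 in F3. Of all tested probe sets, 9.41% were higher and 13.7% lower in F1, 4.7% and 9.65% in F2, and 1.05% and 2.06% in F3. Of the 3 germ cell markers, Kit at 1369822_at had log2 differences of −1.86, −1.02 and −0.34 from F1 to F3, while Nanos3 gave 0.14, 0.12 and 0.38 and Tfap2c −0.06, 0.02 and −0.14, neither of them called. The part of either cell type in the Ddx25 values was not tested.

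**Figure D3:**
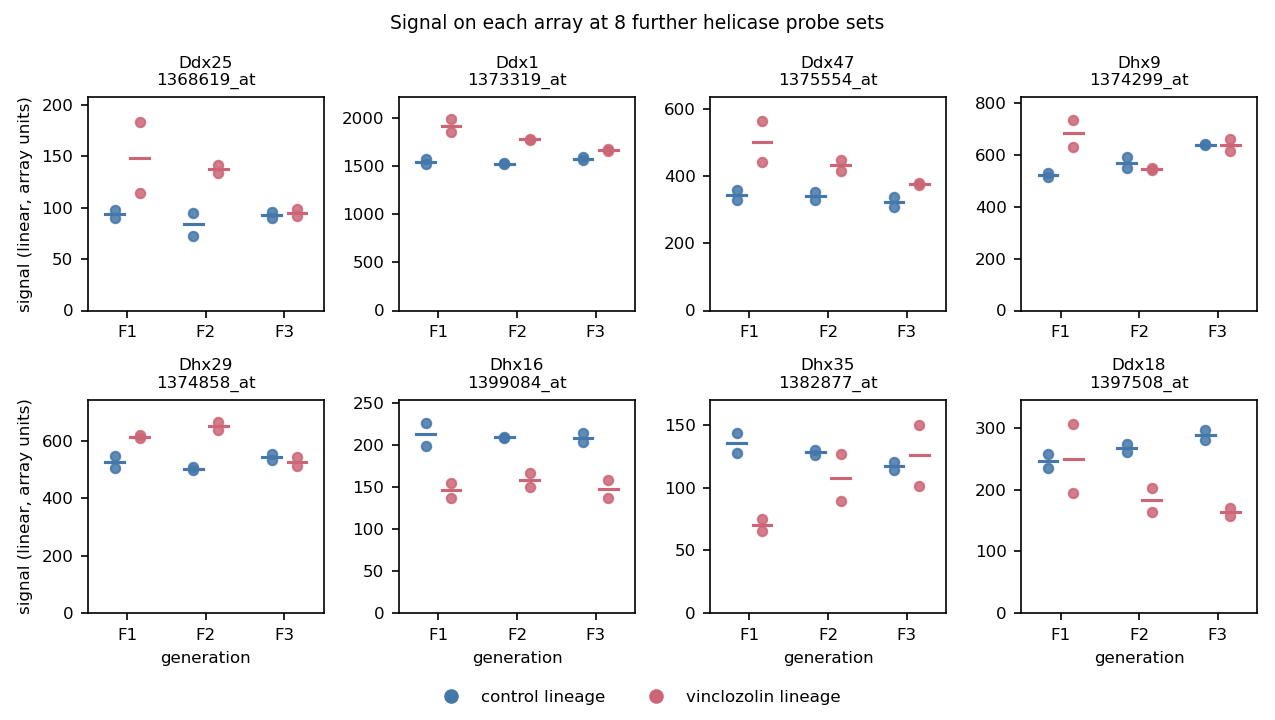
Linear signal on each of the 12 arrays (vertical axis, array units, each panel with its own scale from 0) by generation, for Ddx25, Ddx1, Ddx47, Dhx9, Dhx29, Dhx16, Dhx35 and Ddx18. Points are arrays and bars the mean of 2. Dhx16 stayed between 136.6 and 166.1 on vinclozolin and between 199.1 and 226.0 on control arrays.

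Probe sets of 1 gene often disagreed. Of the 46 genes, 16 had at least 2 tested probe sets, 37 in all, which form 29 pairs. The within-array difference of a pair changed with lineage in 11 of 29 pairs in F1 (37.9% of member pairs, against 37.3% of 6158 pairs of all genes). In F2 it changed in 13 (44.8% against 29.8%) and in F3 in 3, all of Dhx36 (10.3% against 2.21%). Pairs that share a probe set are not independent. The pairs called in F1 came from 7 genes and those in F2 from 8. In 8 of the 11 pairs in F1, 10 of the 13 in F2 and 3 of 3 in F3 it was the dimmer probe set that was lower, as it was in 78.1%, 80.7% and 61% of the pairs called over all genes. The split within helicase genes thus ran the way it did across the array. In both generations, 2 pairs had both probe sets called, and none of these had opposite signs. Over the 16 genes, the median log2 difference was −0.02 in F1 at the brightest and −0.20 at the dimmest probe set, −0.00 and −0.43 in F2, and −0.05 and −0.17 in F3. Over 3267 genes with several tested probe sets it was 0.02 and −0.28, 0.04 and −0.23, and −0.01 and −0.10. Brightness in these pairs and medians was ranked by mean log2 value over the arrays of both lineages. A fall in the vinclozolin lineage thus helped to make a probe set the dimmer one. How much of the pattern came from this ranking was not tested. Control means of Dhx36 at 1377906_at were 297.2, 312.85 and 273.6 in F1, F2 and F3. They lay near those of 1385872_at, at 312.65, 321.9 and 297. Where the probes of each set lie along the transcript was not analysed here.

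**Figure D4:**
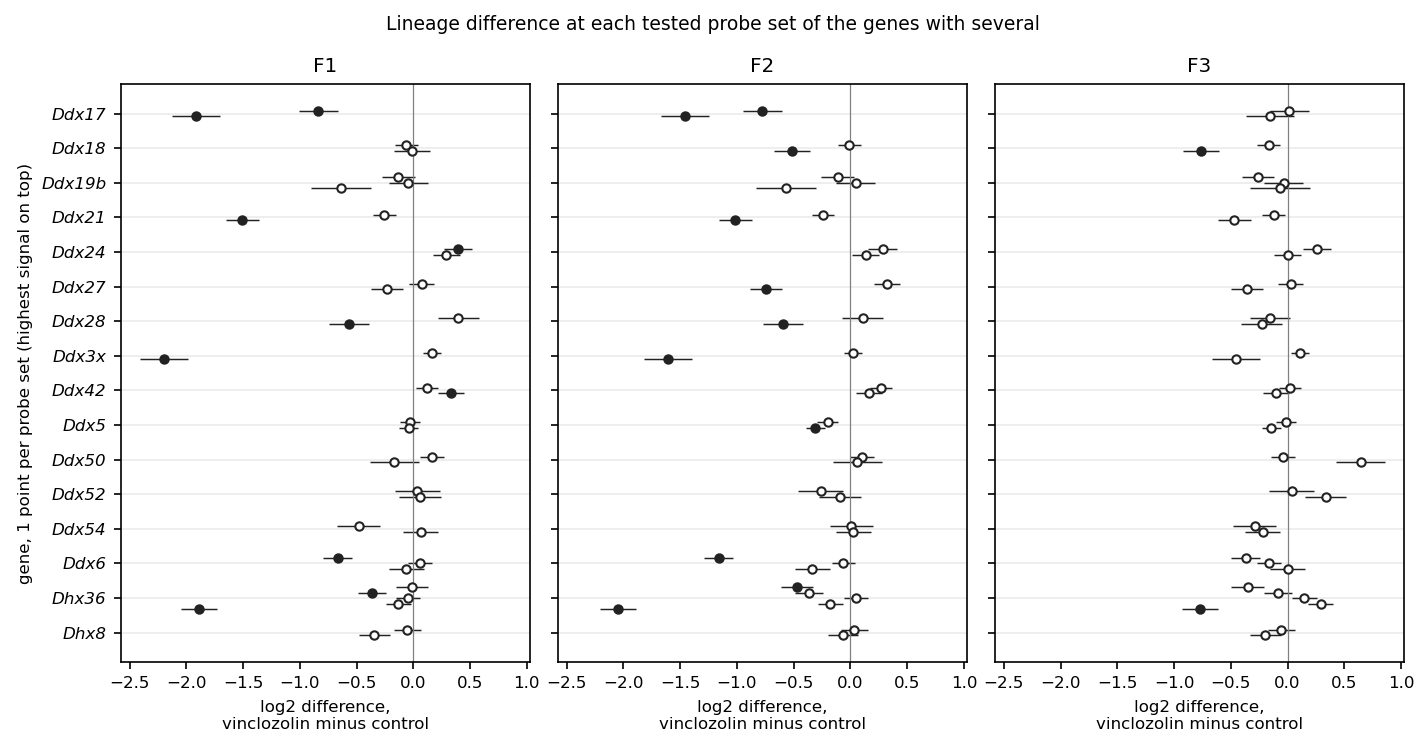
Log2 difference (vinclozolin minus control, horizontal axis, with SE bars) at each tested probe set of the 16 helicase genes with several, in F1, F2 and F3. Filled points had an adjusted p under 0.05. Dhx36 spans −1.89 to −0.01 in F1, and Ddx3x −2.20 to 0.16.

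The lineage difference depended on generation at 4 members (5.97%, against 2.6% of all tested probe sets), all of them probe sets that fell by more than 1 in F1 and F2. The adjusted p of that F test was 0.0117 for Dhx36 1377906_at, 0.0122 for Ddx17 1397405_at, 0.0144 for Ddx3x 1386535_at and 0.0342 for Ddx21 1396187_at. At each of them the F3 difference was the smallest of the generations, and F3 was also the generation in which the beta-actin ratio of the vinclozolin group lay nearest to that of the controls. With the ratio as a covariate no member passed the F test. Among the 3 control groups no member differed (0 of 67, and 0% of all tested probe sets), with 2 members at an unadjusted p under 0.05 (2.38% of all). The control groups spanned a median of 0.11 on the log2 scale per member and at most 0.56.

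Without any test, the arrays of the lineages could be set side by side. In F1, 22 of 67 members had both vinclozolin arrays below both controls and 17 above (32.8% and 25.4%, against 30.6% and 27.8% of all tested probe sets). In F2 the counts were 22 and 18 (32.8% and 26.9%, against 30.4% and 27.6%), and in F3 26 and 11 (38.8% and 16.4%, against 29.7% and 25.8%). Over all 12 arrays, 7 members lay wholly below and 2 wholly above (10.4% and 2.99%, against 7.73% and 5.52%). The 7 were Dhx16 and the probe sets named above of Dhx36, Ddx3x, Ddx21, Ddx6, Ddx27 and Ddx28 that fell, and the 2 were Ddx1 and Ddx47.

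Partners of these helicases and helicases under other names were counted from a list of 46 genes, of which 38 were annotated, with 61 tested probe sets. In F1, 5 were higher and 20 lower, in F2 3 and 16, and in F3 1 and 2, where 9.41% and 13.7%, 4.7% and 9.65%, and 1.05% and 2.06% of all tested probe sets were. The medians were −0.10, −0.04 and −0.00, against −0.01 for all in each generation. With arrays centred these became 12 and 17, 9 and 13, and 1 and 1. The largest changes among called probe sets in F1 were at single probe sets of Eif4g1, the scaffold of the cap-binding complex (1385152_at, −1.77 ± 0.20), Eif4h, a helper of the Eif4a helicases (1397675_at, −1.59 ± 0.23), Patl1, a decapping factor bound by Ddx6 (1395086_at, −1.53 ± 0.17), and Eif4g2 (1397520_at, −1.53 ± 0.13). Their adjusted p were 3.13e-05, 0.000231, 3.08e-05 and 3.47e-06. The brightest probe sets of these genes gave −0.03 (Eif4g1), −0.05 (Eif4h), −0.18 (Patl1) and −0.09 (Eif4g2) in F1 and were not called. Patl1 and Eif4g1 were also called lower in F1 at 1380753_at (−1.39) and 1390340_a_at (−0.60) (adjusted p = 7.25e-05 and 0.0139). Eif4g1 at 1395702_at gave 0.26 and was not called. Eif4g2 rose at its remaining probe set 1388359_at, by 0.43 in F1 and 0.60 in F2 (adjusted p = 0.00125 and 0.000232). In F2 the largest among those called were Eif4g1 1385152_at (−1.50 ± 0.20; adjusted p = 0.000269) and 3 of the 5 probe sets of Pdcd4, an inhibitor of Eif4a (−1.09, −1.01 and −0.97). The other two of Pdcd4 gave −0.47 (adjusted p = 0.00744) and 0.39 (adjusted p = 0.205). In F3 the called probe sets were Eif4g1 1390340_a_at (−0.80 ± 0.16; adjusted p = 0.0151), Patl1 1395086_at (−0.73 ± 0.17; 0.0347) and Rbm8a 1372829_at, of the exon junction complex, which rose by 0.43 ± 0.08 (0.0135).

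**Figure D5:**
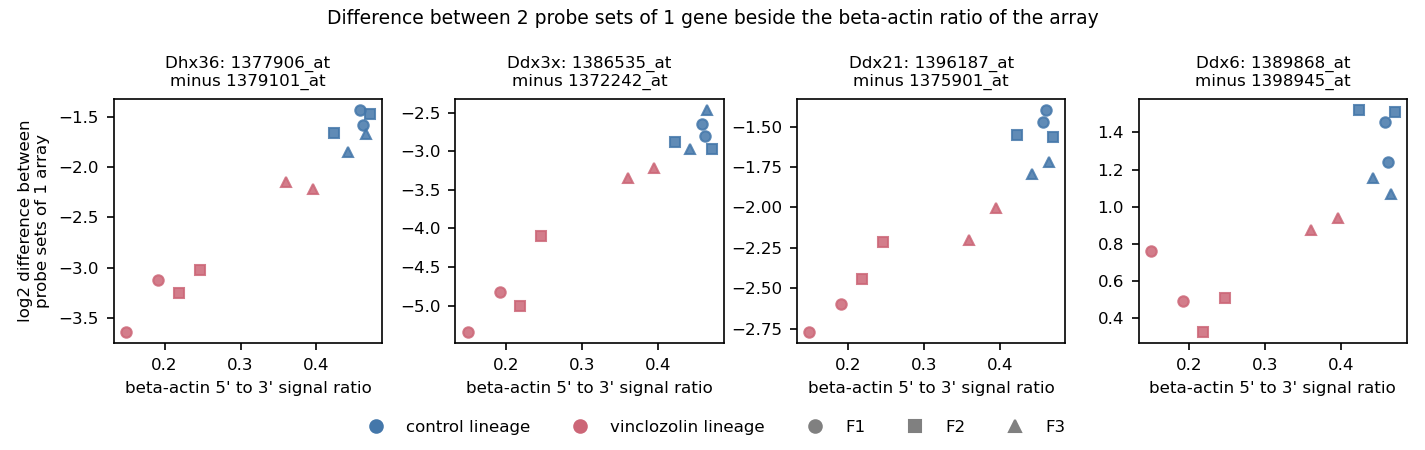
Within-array log2 difference between 2 probe sets of Dhx36, Ddx3x, Ddx21 and Ddx6 (vertical axis) against the 5′ to 3′ beta-actin signal ratio of the same array (horizontal axis), 1 point per array, coloured by lineage and shaped by generation. Control arrays lie at ratios of 0.423 to 0.471 and vinclozolin arrays at 0.149 to 0.395, with no overlap.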

How the data were processed

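For each of 12 Affymetrix rat arrays, the authors deposited 1 linear intensity per probe set. The 2% trimmed mean was nearly equal on all arrays (125.032 to 125.036), as after a global scaling, though that step and the summarisation software are not given in the sources used here. No detection calls were used. Values were transformed as log2(value + 16), which understates fold changes of dim probe sets, without further scaling. The 57 Affymetrix control probe sets and the 9313 in the lowest 30% of mean log2 value (signal below 14.8) were left out.

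The 6 group means were estimated jointly from the 12 arrays (limma 3.58.1, R 4.3.3, lmFit and eBayes with trend, 6 residual and 8.97 prior degrees of freedom). Pairs of probe sets of 1 gene were tested on their within-array log2 difference, adjusted over 6158 pairs. An exact permutation test of 2 arrays against 2 cannot go below p = 0.333, so each test rests on the spread pooled over groups. That pooling takes the spread as equal and gives each probe set the same SE in every generation. Over all tested probe sets, the SD between the 2 arrays of a group ran from 0.130 (F3 control) to 0.244 (F1 vinclozolin) on the log2 scale. Signals of different probe sets are not compared as expression levels.

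Symbols came from GEO's platform annotation, and all 70 members kept their symbol in RefSeq's GRCr8 gene table. Promoters are RefSeq's. Array values were printed for up to 6 called members per direction and generation without overlap, up to 6 per direction in the mean with 1 sign in all 3 generations, up to 8 genes with unequal probe sets, and 11 genes by role; other values named were chosen after they were seen. The members and lists were chosen with earlier results of these data known. The code was tested on simulated data.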

Additional observations from a re-analysis of the deposited data

Results flagged for a closer look

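At 4 helicase probe sets the lineage difference itself differed between generations by the F test of that difference (limma, Benjamini-Hochberg over all tested probe sets). Dhx36 at 1377906_at had an adjusted p of 0.0117, with log2 differences of −1.89 in F1, −2.05 in F2 and −0.77 in F3. Ddx17 at 1397405_at had 0.0122, with −1.92, −1.46 and −0.15. Ddx3x at 1386535_at had 0.0144, with −2.20, −1.61 and −0.45. Ddx21 at 1396187_at had 0.0342, with −1.51, −1.01 and −0.47. The number of members past this test ran from 0 without the second F3 control array to 17 without the first F1 vinclozolin array. The beta-actin ratio of the vinclozolin groups differed between generations too (0.171, 0.233 and 0.378), and generation and that ratio cannot be told apart here.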

How the results depend on the processing

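Of 198 comparisons of 9 counts with an alternative, 155 stayed within 1.5 times the value reported and 43 did not. For 105 single values, 2265 of 2517 comparisons kept direction and call, 172 lost the call, 66 gained one and 14 reversed, all under the beta-actin covariate. That covariate left 0 members called in F1, 0 in F2, 1 in F3, 0 in the mean and 0 for dependence on generation, and 0 unequal pairs in each generation; of all tested probe sets it left 0%, 0%, 1.14%, 0% and 0.0138% called. Values that reversed under it, none of them called, were in F1 Ddx17 1397529_at (1.40) and 1397405_at (0.89), Ddx21 1396187_at (0.094), Ddx24 1376739_at (−0.38), Ddx25 (−1.39), Ddx28 1375576_at (0.025), Ddx3x 1386535_at (0.034), Ddx42 1379896_at (−0.63), Ddx47 (−0.018) and Dhx36 1385871_at (0.10). In F2 they were Ddx17 1397529_at (0.68) and 1397405_at (0.38), Ddx21 1396187_at (0.033) and Ddx25 (−0.63). Others kept their direction and were as large or larger, also without a call: Ddx6 1389868_at (−1.30 in F1 and −1.58 in F2), Dhx9 in F1 (0.69), and in F2 Ddx18 1397508_at (−1.31) and Ddx27 1385471_at (−1.26). The ratio did not overlap between lineages, so lineage and ratio cannot be told apart. The fit rests on the small spread of the ratio within groups, so values that reversed and values that did not cannot be ranked by it. Without the trend 0 members were called in F3 and 0 for generation (1.22% and 0.594% of all tested probe sets). With array weights 12 were called in F1 and 10 in F3 (15.3% and 12.5% of all). The 4 arrays of F1 alone gave 7 and those of F3 alone 9 (10.6% and 10.4% of all). Unequal pairs in F3 numbered 1 with a pseudocount of 4, 6 with 64, and 1 without probe sets that may match several transcripts. Of the pairs of all genes, 0.879%, 5.43% and 2.06% were then unequal.

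Leaving out each array in turn, the lone array of a group being assumed to vary like the others, gave 9 to 26 members called in F1, 6 to 23 in F2, 0 to 9 in F3, 19 to 31 in the mean, 0 to 17 for generation and 0 to 0 among controls. The shares of all tested probe sets moved too, from 11.6% to 33.1% in F1, 4.98% to 22.5% in F2, 0.299% to 10% in F3 and 0.295% to 16.1% for generation. Unequal pairs ran from 10 to 12 in F1, 9 to 15 in F2 and 0 to 4 in F3. F1 had 9 without either F1 control array, F2 had 6 without either F2 control or the second F2 vinclozolin array and 23 without either F1 vinclozolin array, and F3 had 0 without any F3 array and 9 without either F1 vinclozolin array. Of 33 calls of single values, 12 were kept in all 12 runs: both of Dhx36 1377906_at, Ddx3x 1386535_at, Ddx17 1397405_at, Ddx21 1396187_at and Ddx6 1389868_at in F1 and F2, and Ddx17 1397529_at and Dhx35 in F1. With the replicate number as a block, 19, 16 and 3 members were called in F1, F2 and F3 (23.1%, 14.3% and 3.28% of all). In that fit 11, 13 and 2 pairs differed (37.6%, 30.2% and 2.09% of all pairs). No call of a named value was lost and 2 were gained. Differences between the first and second array of a group correlated between groups at −0.0932 to 0.0678. Same-numbered arrays thus showed no clear shift shared across groups. This cannot tell whether the numbers pair samples in another way, and no label says what they mark. With 2 pools a group, precision rests on the number of arrays.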
